A study of Homo sapiens with 6 samples.

Results

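The nuclear genes for subunits of respiratory complex I were read in the peak lists of SON and HMGB2 in IMR90, a human fibroblast cell line derived from embryonic lung. Members were the RefSeq protein-coding genes of GRCh38 on chromosomes 1 to 22 and X whose symbol is NDUFA, NDUFAB, NDUFB, NDUFC, NDUFS or NDUFV followed by a number alone. The rule found 37 genes among 19974, with the NDUFAF assembly factors left out. SON, a protein of nuclear speckles, was profiled by ChIPmentation, in which a transposase tags antibody-bound chromatin, without treatment and following 3 or 6 days of ICM, a treatment whose abbreviation the labels do not expand. HMGB2, a chromatin protein with high mobility group boxes that bind DNA, was profiled in untreated cells. Fixation was by formaldehyde for SON, and by the protein crosslinker EGS followed by formaldehyde for HMGB2, so target and fixation cannot be told apart. The series asks how SON and HMGB2 relate to CTCF, genome folding and gene expression. It holds 6 samples, of which 4 gave the lists used here, 1 per group, so no difference between conditions has a replicate check and none was tested. Not analysed here were an input and an HMGB2 sample titled with DSG. A peak list says where SON or HMGB2 was enriched and holds no expression, so neither the cell type nor the activity of these genes could be checked.

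Complex I (NADH:ubiquinone oxidoreductase) is the entry point of electrons from NADH into the respiratory chain of the inner mitochondrial membrane. Its matrix arm has an N module, which oxidises NADH, and a Q module, which passes electrons to ubiquinone through iron-sulfur clusters, and its membrane arm pumps protons. The mitochondrial genome encodes the hydrophobic core of the membrane arm. Nuclear genes encode the other core subunits, all in the matrix arm, and the accessory subunits. Nuclear speckles are bodies rich in splicing factors beside which many active genes lie.

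The bases just upstream of 10 gene starts are shown because most SON peaks of these genes sat there. They are from the RefSeq promoter table of GRCh38.p14, 5′ to 3′ on the gene's strand, end at the base before the start, and were cut short where another annotated gene begins. Capitals mark matches on either strand to any of 7 motifs: NRF1 (a palindrome of 10 bases), ETS (CCGGAAGT), YY1 (ATGGCGG), SP (GGGCGG), NFY (CCAAT), CRE (TGACGTCA) and the core of the CTCF motif (8 fixed bases among 12). The SP letters can occur inside longer runs, and no motif was masked for another. The first group holds 5 members with a peak of all 4 lists in the gene or within 5 kb. On the bases shown, NDUFS1 and NDUFA5 had a peak of all 4 lists, NDUFS7 and NDUFA11 of the 3 SON lists, and NDUFB10 of SON in untreated cells and at 3 days.
NDUFS1, chr2:206159445-206159608, minus strand: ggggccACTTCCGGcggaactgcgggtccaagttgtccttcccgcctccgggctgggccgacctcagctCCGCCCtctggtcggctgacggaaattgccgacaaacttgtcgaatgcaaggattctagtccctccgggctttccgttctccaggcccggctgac
NDUFS7, chr19:1383657-1383906, plus strand: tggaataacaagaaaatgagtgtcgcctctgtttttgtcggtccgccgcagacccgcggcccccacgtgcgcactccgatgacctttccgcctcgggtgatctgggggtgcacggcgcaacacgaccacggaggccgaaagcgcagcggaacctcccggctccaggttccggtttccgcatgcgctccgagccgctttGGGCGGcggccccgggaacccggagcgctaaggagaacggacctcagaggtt
NDUFA11, chr19:5903791-5904040, minus strand: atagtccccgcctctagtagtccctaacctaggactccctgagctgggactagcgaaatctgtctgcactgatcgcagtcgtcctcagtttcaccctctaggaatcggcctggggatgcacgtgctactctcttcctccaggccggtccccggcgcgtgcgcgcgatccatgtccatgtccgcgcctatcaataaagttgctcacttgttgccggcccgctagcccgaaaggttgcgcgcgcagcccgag
NDUFB10, chr16:1959288-1959537, plus strand: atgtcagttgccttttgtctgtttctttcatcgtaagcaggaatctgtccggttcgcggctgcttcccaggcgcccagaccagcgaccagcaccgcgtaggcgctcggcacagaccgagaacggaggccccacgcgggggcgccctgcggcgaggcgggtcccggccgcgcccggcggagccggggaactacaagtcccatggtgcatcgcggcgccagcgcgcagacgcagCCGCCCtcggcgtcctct
NDUFA5, chr7:123557819-123558068, minus strand: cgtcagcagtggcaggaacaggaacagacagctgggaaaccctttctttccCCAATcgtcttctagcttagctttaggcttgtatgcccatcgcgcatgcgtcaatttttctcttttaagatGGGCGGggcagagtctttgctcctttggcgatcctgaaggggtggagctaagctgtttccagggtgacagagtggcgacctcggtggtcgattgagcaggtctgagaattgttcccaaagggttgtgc
The next pair, chosen after its values were seen, had the strongest untreated SON peaks among members without an HMGB2 peak.
NDUFA3, chr19:54102605-54102854, plus strand: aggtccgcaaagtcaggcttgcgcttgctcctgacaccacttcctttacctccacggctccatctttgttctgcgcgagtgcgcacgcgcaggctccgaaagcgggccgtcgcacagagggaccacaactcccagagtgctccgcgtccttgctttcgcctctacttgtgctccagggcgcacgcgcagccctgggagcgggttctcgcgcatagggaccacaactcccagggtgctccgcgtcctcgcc
NDUFA6, chr22:42090773-42090932, minus strand: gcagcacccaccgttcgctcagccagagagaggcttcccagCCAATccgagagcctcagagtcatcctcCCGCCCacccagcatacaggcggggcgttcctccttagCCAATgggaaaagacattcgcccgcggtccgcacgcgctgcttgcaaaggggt
The last 3 members had no SON peak in any list.
NDUFA1, chrX:119871734-119871831, plus strand: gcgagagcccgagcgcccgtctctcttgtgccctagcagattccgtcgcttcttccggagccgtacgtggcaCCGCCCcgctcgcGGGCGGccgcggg
NDUFA10, chr2:240025343-240025592, minus strand: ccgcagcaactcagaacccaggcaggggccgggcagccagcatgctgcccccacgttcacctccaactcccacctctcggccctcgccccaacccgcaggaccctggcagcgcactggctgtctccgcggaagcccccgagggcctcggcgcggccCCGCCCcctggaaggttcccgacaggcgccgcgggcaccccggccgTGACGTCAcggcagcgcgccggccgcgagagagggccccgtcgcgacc
NDUFB1, chr14:92121707-92121956, minus strand: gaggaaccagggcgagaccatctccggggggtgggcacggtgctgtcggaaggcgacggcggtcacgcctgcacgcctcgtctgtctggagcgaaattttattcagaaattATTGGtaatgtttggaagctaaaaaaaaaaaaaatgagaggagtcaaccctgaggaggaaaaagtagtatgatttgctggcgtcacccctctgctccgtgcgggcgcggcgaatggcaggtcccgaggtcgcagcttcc

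SON peaks were found at most complex I genes in untreated cells and at fewer of them in the later lists. Counting a peak when at least 1 bp lay in the gene span or within 5 kb of it, 32 of 37 members carried a SON peak in untreated cells (86.5%, 95% exact binomial interval 71.2 to 95.5%), against 57.1% of all protein-coding genes. At 3 days 24 members did (64.9%, 47.5 to 79.8%), against 41% of all genes. At 6 days 16 members did (43.2%, 27.1 to 60.5%), against 21.5% of all genes. HMGB2 peaks were present at 11 members (29.7%, 15.9 to 47%), near the 23.3% of all genes. The 3 SON shares lay above those of all genes, and the HMGB2 interval includes the share of all genes. In all 4 lists together 8 members (21.6%, 9.83 to 38.2%) had a peak, against 10.6% of all genes, which this interval includes. In no SON list did 5 members (13.5%) have one, against 41.8% of all genes, and in none of the 4 lists did 4 (10.8%), against 40.3%. The intervals cover counting error only, and the depth of the libraries is unknown.

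The falling counts follow the lengths of the SON lists, which held 22362, 11158 and 5583 lines. With the 5481 strongest peaks of each list, 14, 18 and 16 members carried a SON peak in the untreated, 3-day and 6-day lists, or 37.8%, 48.6% and 43.2%, so the order did not hold. The shares of all genes were then 26.2%, 27.2% and 21.5%, below those of the members in each SON list. The interval of the untreated share, 22.5 to 55.2%, includes the share of all genes.

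**Figure D1:**
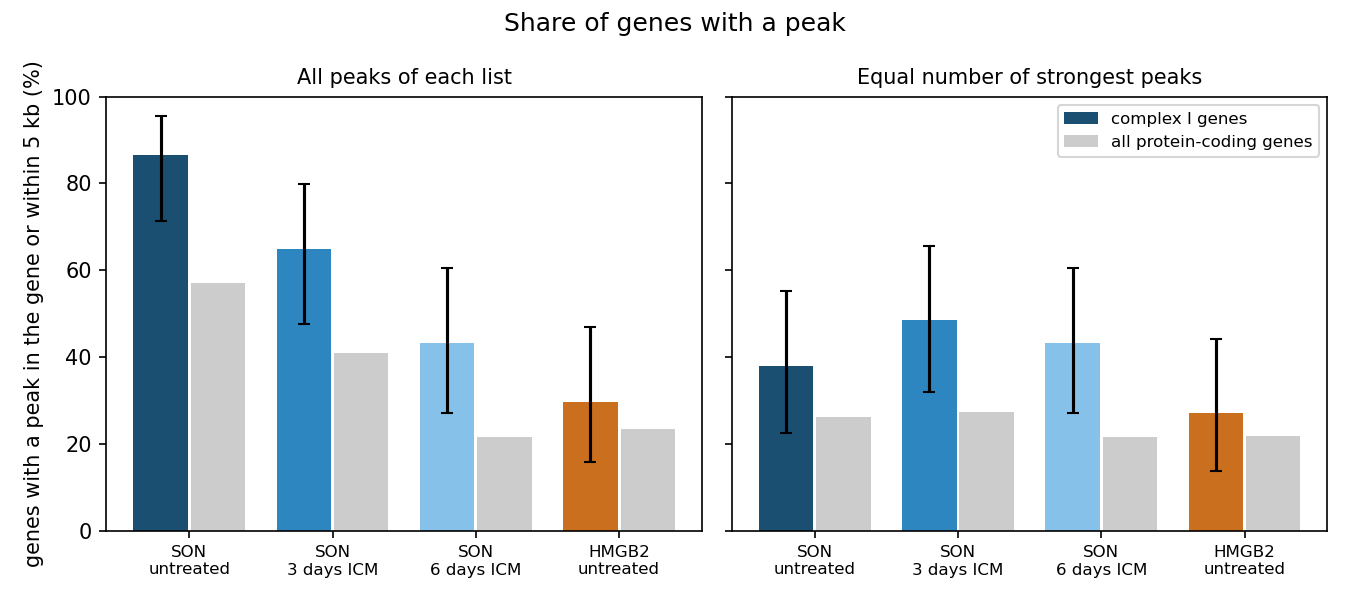
Share of genes with a peak in the gene or within 5 kb (y axis, percent) in each of the 4 lists (x axis), for complex I genes (coloured bars, with 95% exact binomial intervals) and for all protein-coding genes (grey bars). With all peaks the complex I share goes from 86.5% to 43.2% over the 3 SON lists, and with 5481 strongest peaks per list it is 37.8%, 48.6% and 43.2%.

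The later SON peaks were a subset of the untreated ones by gene. No member had a SON peak at 3 or 6 days without one in untreated cells, and 1.1% of all protein-coding genes did. The interval of the members, 0 to 9.49%, includes that share, so this sets them apart little. Of the 32 members with an untreated peak, 24 (75%) had one at 3 days and 16 (50%) at 6 days, against 70.2% and 37.2% of all genes with an untreated peak. The intervals were 56.6 to 88.5% for the 3-day share and 31.9 to 68.1% for the 6-day share. Both include the share of all genes with an untreated peak. All 16 members of the 6-day list were also in the 3-day list. They were 66.7% of the 24 there, against 50.6% of all genes with an untreated and a 3-day peak. The interval of that share, 44.7 to 84.4%, includes 50.6%. Further, 43.2% of members against 20.3% of all genes had a peak in all 3 SON lists. By position, all 26 peaks at 3 days and 15 of 16 at 6 days (93.8%) overlapped an untreated SON peak, against 92.9% and 90.8% of all peaks in the window of a protein-coding gene. Of the 12 HMGB2 peaks, 10 did (83.3%), against 63.6%.

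The 32 members with a SON peak in untreated cells had 40 peaks there. For each peak the deposited SON lists give a −log10 p, the lower of the values of 2 replicates, which is the authors' own and is used only within its list. Taking the strongest peak of each gene, the median in untreated cells was 14.8 for members and 14.6 for all genes with a peak. At 3 days the medians were 14.4 and 11.2, at 6 days 9.18 and 9.25, and for HMGB2 10.9 and 10.4. The median gene length was 11974 bp for members and 24170 bp for all genes. A longer window can hold more peaks to take the strongest from, and these medians were not corrected for that. Of the members with a peak, 6 stood among the strongest 10% of the untreated list, 6 of the 3-day list and 5 of the 6-day list, or 18.8%, 25% and 31.2%, against 22.9%, 18% and 15.5% of all genes with a peak. No member stood among the strongest 10% of the HMGB2 list, where 14.8% of all genes with a peak did.

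**Figure D2:**
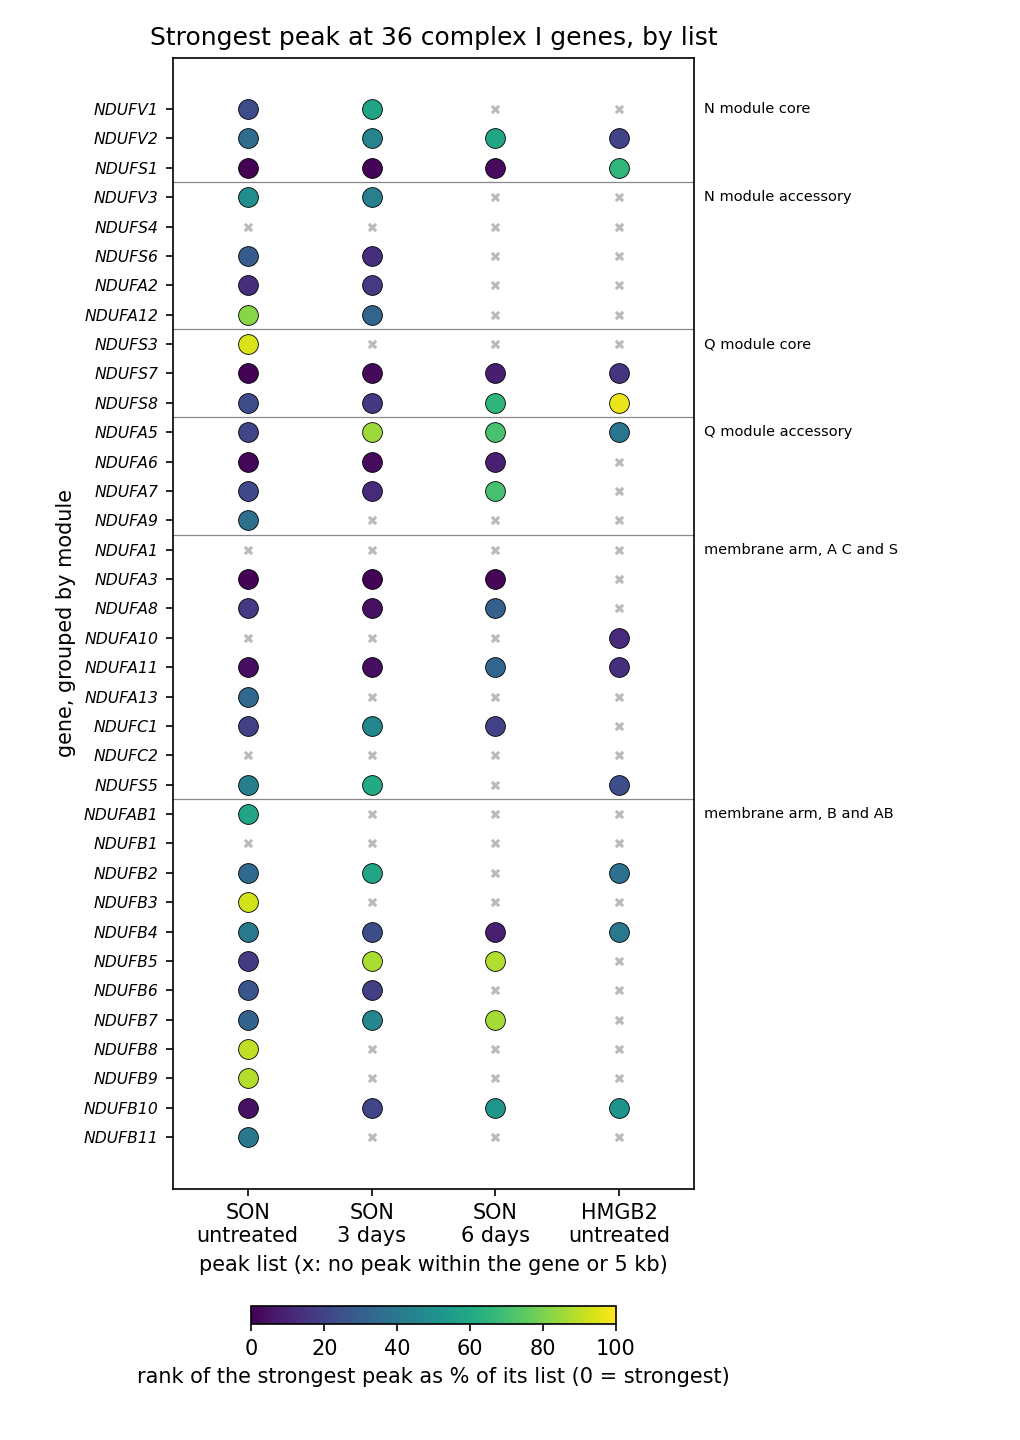
Each row is one of 36 complex I genes, grouped by module, and each column a peak list. The colour gives the rank of the gene's strongest peak as a percentage of its list (dark is strong), and a grey cross stands for no peak within the gene or 5 kb; the crosses grow in number from untreated cells, with 5, to 3 days, with 13, and 6 days, with 21.

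The N module takes electrons from NADH. All of its 3 core genes carried SON peaks in untreated cells and at 3 days. Of all genes 57.1% and 41% did, so with 3 genes this sets them apart little. NDUFS1, whose product is an iron-sulfur protein of the module, had the strongest peak of any member in untreated cells, at chr2:206159310-206159962, where −log10 p was 256 at rank 21 of 22362. The same peak had a −log10 p of 91.6 and rank 115 of 11158 at 3 days and 28.1 and rank 153 of 5583 at 6 days. The HMGB2 peak there was enriched 3.64-fold with a −log10 p of 8.42, and ranked 3939 of 6013. NDUFS1 was thus among the strongest peaks of each SON list and in the weaker part of the HMGB2 list. The summits of all 4 lists lay between 95 and 109 bp upstream of the NDUFS1 start, on the printed bases. EEF1B2, which encodes a translation elongation factor subunit, starts 165 bp from NDUFS1 on the other strand. All of these summits lie nearer to the EEF1B2 start than to that of NDUFS1. The peaks reach into the EEF1B2 span, so the 2 genes share them.

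NDUFV1 encodes the subunit that binds NADH and the flavin. It had a SON peak with a −log10 p of 16.5 in untreated cells and 8.33 at 3 days, 80 and 47 bp upstream of its start, and none at 6 days. NDUFV2, an iron-sulfur subunit beside it, had 4 untreated SON peaks, 2 at 3 days and 1 at 6 days. The peak at the NDUFV2 start, with a −log10 p of 10.5, was in the untreated list alone, where an HMGB2 peak with 13.7 also lay. The 6-day peak, with 8, lay 14750 bp downstream of the start inside the gene, where peaks had 8.03 in untreated cells and 7.72 at 3 days. The other 2 untreated peaks overlapped ANKRD12, with 12.8, the highest untreated value of NDUFV2, and 12. The other 3-day peak, with 9.64, overlapped ANKRD12 too.

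The 5 accessory genes placed here in the N module had no SON peak at 6 days and no HMGB2 peak. Of all genes 21.5% and 23.3% had one, so with 5 genes this sets them apart little. NDUFA2 had a −log10 p of 22.5 in untreated cells and 16.7 at 3 days, at a start 199 bp from that of IK, a splicing factor gene, on the other strand. NDUFV3 had 10.1 and 9.89. The peaks of NDUFS6, whose product binds zinc, had 14.6 and 19.4 but lay 1451 to 1477 bp upstream, over MRPL36, a mitochondrial ribosomal protein gene. NDUFA12 had 2 weak untreated peaks, with 6.65 and 4.88, and a 3-day peak with 11.5. NDUFS4, which is needed for a stable N module, had no peak in any list, and its nearest untreated SON peak lay 141 kb away.

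The Q module binds ubiquinone. NDUFS7, which carries the last iron-sulfur cluster before ubiquinone, had a peak in all 4 lists. Its SON peak at chr19:1383166-1383929 reached a −log10 p of 91.7 and rank 137 in untreated cells, 55.3 and rank 281 at 3 days, and 16 and rank 476 at 6 days. Its HMGB2 peak had 14.9 with a fold enrichment of 6.65. The SON summits lay 375 to 441 bp and the HMGB2 summit 588 bp upstream of the start, farther than at most members. NDUFS8, another iron-sulfur subunit, also had peaks in all 4 lists, with a SON −log10 p of 16.6, 17.2 and 7.62, and an HMGB2 value of 5.37 that ranked 5813 of 6013.

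NDUFS3, a core subunit of the same module, had one of the weakest untreated peaks, with 5.52 and rank 21080, and none later.

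Of the 4 accessory genes placed here in the Q module, 4, 3 and 3 carried a SON peak over the 3 SON lists in the order of time. These are 100%, 75% and 75%, against 57.1%, 41% and 21.5% of all genes. The group has 4 genes, and no difference was tested. NDUFA6 had a −log10 p of 61.5, 49.4 and 15.9 in the SON lists in the order of time, with ranks 315, 339 and 489, and no HMGB2 peak. NDUFA5 had 17.4, 6.42 and 7.31, at a start inside the longest annotated transcript, with the summits 83 to 101 bp upstream of it. An HMGB2 peak with 10.6 lay at the same place, and a weaker HMGB2 peak, with 7.82, lay beyond the far end of the gene, near the IQUB start. NDUFA7 had an untreated peak with 17 at its start, 121 bp from that of the ribosomal protein gene RPS28, and a second one with 12 at the far end of the gene, over CD320. Its 3-day and 6-day peaks, with 20.3 and 7.33, lay at the CD320 end, so its place in the later lists rests on a neighbour. NDUFA9 had 12.5 in untreated cells and no later peak.

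The membrane arm holds the proton pumps, and only accessory subunits of it are nuclear. NDUFA3, a small membrane subunit, was second to NDUFS1 in untreated cells and had the strongest member peak at 3 and 6 days. Its SON peak at chr19:54102408-54103038 reached a −log10 p of 168 and rank 42 in untreated cells, 153 and rank 56 at 3 days, and 47.6 and rank 70 at 6 days. It carried no HMGB2 peak. NDUFA11 had a −log10 p of 42.6, 47.9 and 9.96 and an HMGB2 value of 15.5, all with summits 735 to 838 bp upstream, and its SON peaks reached over VMAC. NDUFA8, a subunit on the intermembrane space side, had 19.2, 41.1 and 10.3 and lies 129 bp from MORN5. NDUFC1 had 18.2, 9.55 and 11.9 at a start 271 bp from NAA15.

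The remaining genes of this group had peaks in fewer lists. NDUFS5 had a −log10 p of 11.1 in untreated cells, 8.18 at 3 days and none at 6 days, with an HMGB2 peak of 12.9. NDUFA13 had 13.1 in untreated cells alone. NDUFA10, whose product resembles a nucleoside kinase, was the one member with an HMGB2 peak and no SON peak. Its HMGB2 peak was enriched 6.11-fold with a −log10 p of 16.3, the highest −log10 p of any member in that list, 145 bp upstream of the start, and the nearest untreated SON peak lay 345 kb from the gene. NDUFA1 on the X chromosome and NDUFC2 had no peak in any list, with the nearest untreated SON peaks 18.4 and 16.4 kb away.

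Of the 12 genes for B subunits and NDUFAB1, 11 carried an untreated SON peak, 6 a 3-day peak and 4 a 6-day peak. These are 91.7%, 50% and 33.3%, against 57.1%, 41% and 21.5% of all genes. With 12 genes the later shares are near those of all genes. NDUFB4 had a −log10 p of 11.5, 13.9 and 16 in the 3 SON lists, with ranks 9090, 2574 and 484, and an HMGB2 value of 10.4, all within 77 bp of its start. These ranks come from lists of different length and show no change by themselves. NDUFB5 had 19.3, 6.26 and 6.27 at an end it shares with MRPL47, and NDUFB7 had 13.7, 9.52 and 6.38. NDUFB10 had a −log10 p of 13.5 at its start in untreated cells and 7.45 at 3 days. Its stronger peak, with 37.8, 14.9 and 8.4 and an HMGB2 value of 9.43, lay over the ribosomal protein gene RPS2 next to it, and was the one found in all 4 lists.

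NDUFB2 had a −log10 p of 12.9 in untreated cells and 8.31 at 3 days, with an HMGB2 peak of 10.9. NDUFB6 had an untreated peak of 7.25 at its start and a peak of 15.1 in untreated cells and 15.8 at 3 days beyond its other end, over TOPORS and SMIM27. The other members with a SON peak in untreated cells only were NDUFB3 with 5.69, NDUFB8 with 5.98, NDUFB9 with 6.12, NDUFAB1, the mitochondrial acyl carrier protein, with 8.79, and NDUFB11 with 11.6. NDUFB1 had no peak in any list, and its nearest untreated SON peak lay 9.15 kb away, outside the window.

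By arm, SON peaks were present at 15, 13 and 8 of 16 matrix-arm genes over the 3 SON lists in the order of time, and at 17, 11 and 8 of 21 membrane-arm genes. The 7 core genes carried a SON peak in 7, 6 and 5 cases and an HMGB2 peak in 4, and the 30 accessory genes in 25, 18 and 11 cases and in 7. Of all protein-coding genes 57.1%, 41% and 21.5% had a SON peak in these lists and 23.3% an HMGB2 peak. The HMGB2 share of the accessory genes was also 23.3%. These counts are small, and no difference between arms or between core and accessory genes was tested.

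Members that were found later had the higher values in the untreated list, taking the strongest untreated peak of each gene. The 8 members with a SON peak in untreated cells alone had an untreated −log10 p between 5.52 and 13.1, with a median of 7.46. The 8 found at 3 days but not at 6 days had between 6.65 and 22.5, with a median of 13.7, and the 16 found in all 3 lists between 11.5 and 256, with a median of 18.7. The ranges overlap. The medians of all protein-coding genes in the same classes were 8.57, 14.4 and 26.5, so the same order held there. HMGB2 peaks were present at 0 of the 8, 2 of the 8 and 8 of the 16 members of these classes, against 22.7%, 36% and 52.4% of all genes in them. Among all genes with an untreated SON peak, 37.9% carried an HMGB2 peak, and 31.2% of such members did. Among genes without an untreated SON peak 3.8% did, and 1 of the 5 such members.

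**Figure D3:**
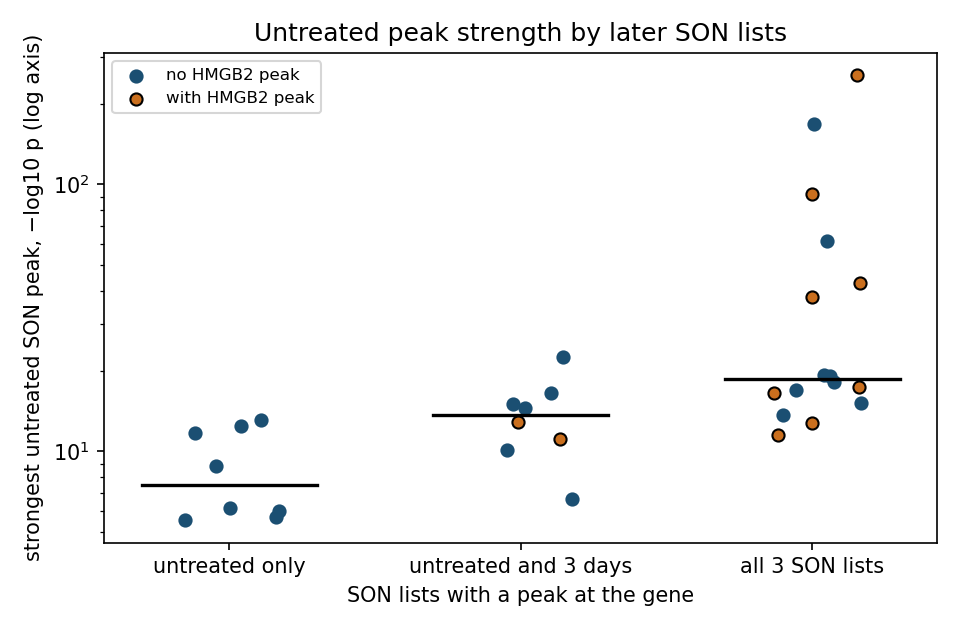
The −log10 p of the strongest untreated SON peak of each of 32 complex I genes (y axis, log scale) by the SON lists in which the gene had a peak (x axis). Points are genes, orange with an HMGB2 peak and blue without, and bars are medians of 7.46, 13.7 and 18.7.

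The deposited SON lists also give a global irreproducible discovery rate (IDR), which compares ranks between 2 replicates. It was at most 0.05 for 31 of 40 member peaks in untreated cells (77.5%), 13 of 26 at 3 days (50%) and 5 of 16 at 6 days (31.2%), against 59.7%, 41.8% and 16% of all lines. The 5 peaks at 6 days belonged to NDUFS1, NDUFS7, NDUFA3, NDUFA6 and NDUFB4. With this limit 27 members (73%) carried an untreated SON peak, 13 (35.1%) a 3-day peak and 5 (13.5%) a 6-day peak, against 45%, 24% and 5.02% of all genes. The intervals at 3 days, 20.2 to 52.5%, and at 6 days, 4.54 to 28.8%, include the shares of all genes. In the untreated list the −log10 p of both replicates was identical for 30 of the 40 member peaks (75%), and for 55.9% of all its lines. At 3 days this held for 4 of 26 (15.4%, against 29%) and at 6 days for 3 of 16 (18.8%, against 9.49%), so identical values were more common in the untreated list. Whether the replicates shared reads was not tested.

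SON and HMGB2 summits lay just upstream of the gene starts. Starts were listed for 32 members, and the other 5 have none in the table used. At these 32, 27 of 36 untreated SON peaks had their summit within 1 kb of the gene's own start, and 26 of the 27 lay upstream, with a median of −89 bp. Of all untreated SON peaks that close to a listed start of a protein-coding gene, 85.7% lay upstream of the nearest such start. At 3 days 17 of 23 peaks were that close with a median of −94 bp, at 6 days 11 of 14 with −107 bp, and for HMGB2 9 of 11 with −102 bp. Over all protein-coding genes the medians were −89, −101, −123 and −98 bp, so the place of these peaks was that of gene-start peaks in general. Within 1 kb of a start, a peak was present at 84.4%, 53.1%, 34.4% and 28.1% of members in the order of the lists, against 42.9%, 30.4%, 12.6% and 16.2% of all genes with a listed start.

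**Figure D4:**
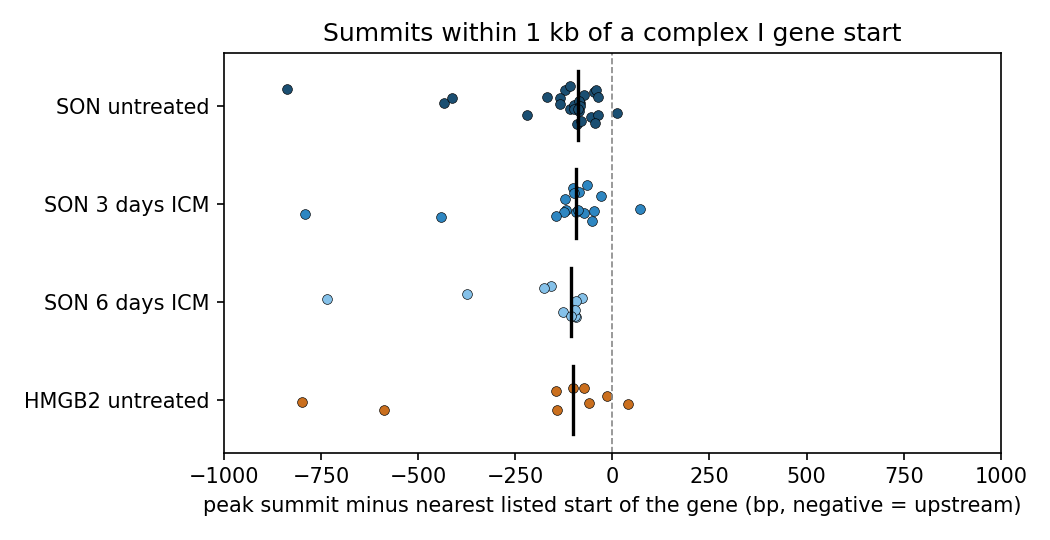
Distance from the nearest listed start of the gene to the peak summit (x axis, bp, negative is upstream) for peaks within 1 kb, by list (y axis). Points are peaks and vertical bars are medians, which lie between −107 and −89 bp in all 4 lists.

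Many of these peaks are shared with another gene. Of the 40 untreated SON peaks 19 overlapped the span of another protein-coding gene, as did 12 of 26 at 3 days, 8 of 16 at 6 days and 2 of 12 for HMGB2, or 47.5%, 46.2%, 50% and 16.7%. Over all pairs of a protein-coding gene and a peak in its window, the shares were 25.4%, 30.6%, 28.4% and 25.4%. A start of a protein-coding gene on the other strand lay within 1 kb for 11 of 32 members (34.4%), against 13.6% of all genes. Untreated SON peaks were present at 9 of these 11 and at 19 of the 21 without such a neighbour, while over all genes the shares were 84.7% and 55.6%. When each peak was given only to the gene with the nearest start, 24 members (64.9%) kept an untreated SON peak, 18 (48.6%) a 3-day peak, 10 (27%) a 6-day peak and 8 (21.6%) an HMGB2 peak, against 46.6%, 31.7%, 15.7% and 17.5% of all genes, with the 6-day interval, 13.8 to 44.1%, and the HMGB2 interval, 9.83 to 38.2%, including the share of all genes. Which gene of a pair a peak belongs to cannot be told from the lists.

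The promoters of members were compared with all promoters of the table, 300 bases each, from 250 before to 50 after the start. The YY1 letters were in 13 of 32 member promoters (40.6%) and in 7.63% of 15812 promoters. They lay within the 50 bases after the start in 11 members (34.4%, against 4.57%) and before it in 3 (9.38%, against 3.27%), with NDUFA13 counted in both. Sites after the start are shown with 7 bases on each side, the motif in capitals and the letters on the gene's strand, for members of the 3 classes above and for NDUFS4, which had no SON peak.
NDUFS7, chr19:1383920-1383940: ggccaagATGGCGGtgctgtc
NDUFA6, chr22:42090731-42090751: tggcaagATGGCGGggagcgg
NDUFS1, chr2:206159417-206159437: gccgaggCCGCCATattgaat
NDUFS6, chr5:1801411-1801431: gcgcaaaATGGCGGcggcgat
NDUFA9, chr12:4649120-4649140: ggaaaagATGGCGGctgccgc
NDUFS4, chr5:53560656-53560676: cagcaagATGGCGGcggtgtc
In 8 members the letters after the start read ATGGCGG on the gene's strand, and in 3 the reverse complement. ATG can also open a reading frame, and which of the sites do so was not tested. Of the 11 members with these letters after the start, 4 had a peak in all 3 SON lists, 2 in untreated cells and at 3 days, 4 in untreated cells alone and 1 in none. Of all 37 members 16, 8, 8 and 5 were in these classes, and of all genes 20.3%, 19.8%, 16.1% and 41.8%. Whether the letters go with a class was not tested. The SP letters were in 20 members (62.5%, against 58.5%), NFY in 8 (25%, against 36.3%), and NRF1 (6.25%, against 1.76%), ETS (6.25%, against 6.2%) and CRE (6.25%, against 2.59%) in 2 each. The CTCF letters were in none of the 32, and in 2.69% of all promoters. Median GC content was 61.8% in members and 62.7% in all promoters.

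SON peaks were also common at the other respiratory complexes. SON peaks were present at 39 of 41 nuclear genes of complexes II to V in untreated cells (95.1%), at 35 (85.4%) at 3 days and at 18 (43.9%) at 6 days. HMGB2 peaks were present at 17 (41.5%). These shares lie above 57.1%, 41%, 21.5% and 23.3% of all genes. The strongest untreated SON peaks of these lists were at SDHA of complex II, with a −log10 p of 49.2, UQCRH of complex III, with 25.6, COX6A1 of complex IV, with 36.4, and ATP5PO of complex V, with 63. Complex V, the ATP synthase, had HMGB2 peaks at 10 of 18 genes (55.6%, against 23.3% of all genes). Of 18 complex I assembly genes 16, 12 and 5 carried a SON peak (88.9%, 66.7% and 27.8%) and 7 an HMGB2 peak (38.9%). Of all genes 57.1%, 41%, 21.5% and 23.3% did, so the 6-day share was near that of all genes. The strongest untreated peak of the assembly genes was at TMEM70, 84.4. All 8 regulators of mitochondrial biogenesis that were read carried a SON peak in untreated cells and at 3 days. Among them were NRF1, GABPA, YY1, TFAM and PPARGC1A. At 6 days 4 of the 8 did (50%, against 21.5% of all genes). The strongest untreated peak of the 8 was at ESRRA, 37.1. All these lists were fixed from textbook membership, with 10 genes for complex IV, and not by a symbol rule as for complex I. Genes left out of them are not in these shares, and the lists were not tested against complex I.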

How the data were processed

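ChIPmentation peak lists of 4 samples were used, 1 per group, with groups from the titles and treatment labels. The tools Bowtie2, MACS2, deepTools and bcl2fastq 2.17 and the build hg38 are named in the submitters' processing notes; filters, controls and thresholds of SON are not given in the sources used here. Per the deposited files' layout, SON lists are IDR output on 2 replicates, with the authors' −log10 p per line, −log10 of the local and global IDR, a scaled IDR score, and a placeholder in other columns. The deposited HMGB2 list has a fold enrichment (ratio), −log10 p and q and a score per peak, with a q cutoff of 0.03 in the peak names. Ranks use all lines of a list by −log10 p.

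Genes, starts and promoters came from RefSeq tables of GRCh38.p14, the hg38 build; coordinates are 1-based. The values of 1 member are not reported here singly, though it is in the counts. All 37 members matched the gene table and 32 the promoter table. Overlap needed 1 bp. The overlap count was tested on simulated data. Intervals are exact binomial (Clopper-Pearson). No test was made, since each group has 1 list. Values in full are given for members with a peak in all 4 lists, with no untreated SON peak, or among the 5 highest −log10 p of a list; other members were named after their values were seen. The members and lists were chosen with earlier results of these data known. Software was Python 3.11.15 with scipy 1.17.1, pandas 2.3.3, numpy 2.4.6 and matplotlib 3.10.9. Alternatives covered the window, the threshold, list length, the overlap, the assignment of peaks to genes and gene length.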

Additional observations from a re-analysis of the deposited data

Results flagged for a closer look

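The mitochondrial genome encodes the other 7 core subunits of complex I and was outside the comparisons above. Peaks on it met all 7 of these genes, ND1 to ND6 and ND4L, in each of the lists: 7 in untreated SON, 7 in SON at 3 days, 7 in SON at 6 days and 7 in HMGB2, which stands out because a signal appears in data outside the main measurement. The 8, 8, 10 and 9 mitochondrial peaks covered 80.3%, 74.7% and 69.1% of the bases of these genes in the SON lists and 93.8% in the HMGB2 list. ND4L and ND6 were covered whole in all 4 lists. ND3 was covered least in 3 of the lists, with 25.1% in untreated SON, 19.9% at 3 days and 69.7% for HMGB2, and ND2 least at 6 days, with 27.2% against 30.6% for ND3. The ranks of the mitochondrial peaks ran from 30 to 3883 in untreated SON, 2 to 1001 at 3 days, 14 to 248 at 6 days and 3 to 15 for HMGB2. The input sample was not analysed here, so no control stands beside them. Other mitochondrial genes were not counted, so whether this overlap is particular to complex I genes was not tested.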

How the results depend on the processing

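Of 37 alternative shares, 27 stayed within the interval of the main share and 10 moved out of it. With the stronger 50% of each list, the share of members with a SON peak was 70.3% in untreated cells, 21.6% at 6 days and 21.6% in all 3 SON lists. With a global IDR of at most 0.05 it was 35.1% at 3 days, 13.5% at 6 days and 13.5% in all 3. With 5481 strongest peaks per list it was 37.8% in untreated cells and 27% in all 3. With peaks given to the nearest start it was 64.9% in untreated cells and 27% at 6 days. These settings keep fewer peaks by construction. In every setting run the share of members lay above that of all genes in each of the 4 lists, for HMGB2 by as little as 16.2% against 15.6% with the gene span alone. The interval of the members included the share of all genes in 7 of 7 alternatives for HMGB2, 5 of 24 for single SON lists and 3 of 6 for all 3 SON lists together. The 5 were the untreated list with the strongest peaks, the 3-day list with the IDR limit, and the 6-day list with the stronger 50%, the IDR limit or the nearest start. With the background set to the members' gene lengths in 5 classes, the excess in percentage points went from 29.4 to 34.3 in untreated SON, 23.9 to 27.3 at 3 days, 21.7 to 23.8 at 6 days and 6.45 to 7.46 for HMGB2. The IDR limit could not be applied to HMGB2. No paired analysis was possible because each group has 1 list, and for the same reason no replicate could be left out. Depth is unknown, so a missing peak cannot be read as absence of SON.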

Other observations

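Genes once named with complex I but now under other symbols, and a read-through gene, fell outside the rule. COXFA4, formerly NDUFA4 and now placed with complex IV, had a SON peak with a −log10 p of 17.7 in untreated cells and 15.7 at 3 days and none at 6 days. Its HMGB2 peak had 56.4 and ranked 54 of 6013, above that of every one of the 37 members, whose highest was 16.3 at NDUFA10. COXFA4L2, its paralogue, had 12.3 in untreated cells, 24.8 at 3 days, none at 6 days and an HMGB2 value of 7.13. The read-through gene NDUFC2-KCTD14 had an untreated SON peak of 7.56 that lies outside the window of NDUFC2 itself.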
